A study of Caenorhabditis elegans with 16 samples.

Results

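The genes described here are the F-box protein genes of Caenorhabditis elegans that carry an fbxa, fbxb or fbxc symbol followed by a number. They were taken by symbol from the series' expression matrix, without use of any measured value, and 390 of its 46904 genes matched: 222 fbxa, 113 fbxb and 55 fbxc genes. Of these, 321 are annotated as protein coding and 69 as pseudogenes. Poly(A) RNA was sequenced from whole worms, 16 libraries in all, from an optogenetic model of repeated muscle contraction. All 4 groups were young adult hermaphrodites of strain PP3189, whose integrated transgene hhIs251 drives a FLAG-tagged channelrhodopsin-2 variant, ChR2(C128S;H134R), from the body wall muscle promoter myo-3p, together with an unc-119(+) marker. The channel needs the cofactor all-trans retinal (ATR) to respond to light.

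In the light plus ATR group, worms had 0.1 mM ATR from the L1 larval stage and received 5 s pulses of blue light (455 nm), each followed by 20 min of darkness, over 8 h at 18 °C. The light minus ATR group received the same light without ATR. The dark plus ATR group had 0.1 mM ATR and no light pulses, and the dark minus ATR group had neither. By the paper's account, white laboratory light at collection can also trigger a functional channel, with a weaker contraction and no sustained effects. Its part in the dark plus ATR libraries was not tested. Each group had 4 libraries, described as biological replicates. Worms that ruptured were removed by sedimentation before sampling, so the light plus ATR libraries come from the worms that stayed intact. Because whole worms were sampled, fewer cells of a type and less RNA per cell cannot be told apart.

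F-box proteins are the substrate-binding subunits of SCF ubiquitin ligases. The F-box motif binds a SKP1-related adaptor, which docks on a cullin that also carries a RING subunit, while the rest of the F-box protein selects the protein to be ubiquitylated. The F-box gene families are greatly expanded in Caenorhabditis, lie in clusters on the chromosomes and evolve fast. Most of the individual proteins have no assigned substrate. FBXA-75 and FBXA-158 are known to act with the cullin CUL-6 in the response to intracellular pathogens.

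Levels are given as CPM, that is, estimated read counts scaled to a common library size, with library sizes adjusted by the trimmed mean of M-values (TMM). Library totals were 21266999 to 25416073 estimated counts in light plus ATR, 19859400 to 29379938 in light minus ATR, 25804736 to 32374032 in dark plus ATR and 19264325 to 28704269 in dark minus ATR. The F-box genes held between 19371.9 and 31697.1 of the counts of a library. Their summed level was 1033 to 1063 CPM in light plus ATR, 988 to 1071 CPM in light minus ATR, 1005 to 1045 CPM in dark plus ATR and 1014 to 1090 CPM in dark minus ATR, so the ranges of all 4 groups overlapped. No marker gene of body wall muscle, intestine, hypodermis, neurons, germline or sperm was at 0 in all libraries.

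Most F-box genes were expressed at a low level. A mean under 1 CPM was found for 266 of the 390 genes, 13 genes had no count in any library (12 fbxa and 1 fbxb), and 16 genes reached 10 CPM. The filter on low counts kept 247 of the 390 F-box genes (135 fbxa, 74 fbxb and 38 fbxc, of them 40 pseudogenes) among the 15044 genes tested. The median mean level of these 247 genes was 0.989 CPM, against 11.2 CPM for all genes tested. By family, the medians were 1.78 CPM for fbxa, 0.517 CPM for fbxb and 1.24 CPM for fbxc genes. The fbxb genes were thus the lowest of the families, and none of them reached 10 CPM.

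A single gene, fbxa-215 (WBGene00012879, chromosome IV, 13665364 to 13666909, minus strand), held 23.98% of the CPM of all F-box genes, with a mean level of 249.9 CPM. The next highest were fbxa-210 at 43.4 CPM, fbxc-50 at 42.4 CPM, fbxa-101 at 38.9 CPM and fbxc-44 at 38.2 CPM. Per kilobase of exon, the level of fbxa-215 was 186 CPM, and the levels of the other 4 lay between 32.7 CPM for fbxa-210 and 38.8 CPM for fbxc-44. None of these 5 genes was called in any comparison. Their log2 fold changes between light plus ATR and light minus ATR were -0.02 for fbxa-215, -0.02 for fbxa-210, -0.07 for fbxc-50, 0.04 for fbxa-101 and -0.04 for fbxc-44.

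The genes lie in clusters. Another F-box gene was found within 10 kb for 294 of the 390 genes. Chromosome II carried 124 of them, including 63 fbxb and 40 fbxc genes, chromosome V carried 109 (92 fbxa), and chromosome III carried 82 (73 fbxa). The remaining chromosomes held 29 (IV), 24 (I) and 22 (X). All positions are from the Ensembl release 115 annotation of WBcel235, the build named for the deposited files.

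The comparison of light plus ATR with light minus ATR asks what changes when the illuminated channel is functional. Here 13 of the 247 tested F-box genes (5.26%) passed the quasi-likelihood F test of edgeR at a threshold of 0.05, adjusted over all 15044 genes by the Benjamini-Hochberg method. Of these, 5 were higher and 8 lower in light plus ATR. The background for this comparison was 16.3% of all genes tested. The median log2 fold change over the 247 genes was -0.03, against 0.01 over all genes. The split between higher and lower depended on the scaling: it was 7 and 5 with plain library totals, 5 and 2 with totals of the ERCC spike-in RNA and 5 and 4 with DESeq2. Of the 13 genes, 12 were fbxa genes (5 higher, 7 lower), which was 8.89% of the 135 tested. Another was an fbxc gene (2.63% of 38 tested), and 0 of 74 tested fbxb genes were called. Most fbxb genes lie under 1 CPM, where 6.19% of all genes were called. At unadjusted p under 0.05, 6 fbxb genes (8.11%) passed, against 30.9% of all genes.

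Set beside genes of like level, the share called varied. Among genes with a mean under 1 CPM, 6 of 124 F-box genes (4.84%) and 143 of 2312 genes in all (6.19%) were called. Between 1 and 3 CPM the shares were 5% of 60 F-box genes and 11% of all genes, and between 3 and 10 CPM they were 0 of 47 F-box genes and 18.1% of all genes. At 10 CPM or more, 4 of 16 F-box genes (25%) and 20.3% of all genes were called. The 4 genes in this upper range were fbxa-24, fbxa-72, fbxa-60 and fbxc-52. Under 1 CPM the median log2 fold change was -0.13 over F-box genes and 0.22 over all genes. Between 1 and 3 CPM the medians were 0.03 and 0.19 in that order. From 3 to 10 CPM they were 0.002 and 0.11, and at 10 CPM or more -0.03 and -0.04.

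Among the genes that were higher, fbxa-24 (WBGene00018803, chromosome II, 3816526 to 3818238, plus strand) stood at the highest level. It had 40.1, 51.3, 36.7 and 37.8 CPM in light plus ATR, against 20.1, 14.5, 12.1 and 16.5 CPM in light minus ATR, 15.4, 18.9, 13.3 and 13.1 CPM in dark plus ATR and 14.7, 13.2, 9.98 and 10.1 CPM in dark minus ATR. Every light plus ATR library was above all 12 others, and the lowest of them, at 36.7 CPM, was well clear of the highest of the 12, at 20.1 CPM. The fitted change was 2.61-fold (log2 1.38 ± 0.18 SE, edgeR adjusted p = 9.76e-05). In 11 of the 16 libraries the estimated count of fbxa-24 was not whole, which marks reads divided among genes.

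A lower level was measured for fbxa-155 (WBGene00007323, chromosome III, 10007966 to 10010217, minus strand), at 1.57, 1.07, 1.35 and 2.20 CPM in light plus ATR, against 0.778, 0.496, 0.892 and 0.969 CPM in light minus ATR. The dark groups lay between 0.590 and 0.991 CPM (plus ATR) and between 0.399 and 0.993 CPM (minus ATR), so the light plus ATR libraries were above all others, although the lowest of them came close. Its change was 1.98-fold (log2 0.98 ± 0.28 SE, edgeR adjusted p = 0.0196). For fbxa-202 (WBGene00020890, chromosome V, 6327280 to 6328865, plus strand), the levels were 2.91, 3.13, 2.70 and 3.42 CPM in light plus ATR, against 2.37, 1.73, 1.87 and 2.09 CPM in light minus ATR, 1.88, 1.61, 1.24 and 1.20 CPM in dark plus ATR and 1.35, 1.18, 1.50 and 1.62 CPM in dark minus ATR. Again no light plus ATR library overlapped the other 12. The change was 1.50-fold (log2 0.58 ± 0.17 SE, edgeR adjusted p = 0.0192).

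The other genes that were higher, fbxa-39 and fbxa-38, lie 45.83 kb apart on the plus strand of chromosome III (2273032 to 2277219 for fbxa-39 and 2224672 to 2227198 for fbxa-38). The levels of fbxa-39 were 1.07, 1.21, 1.50 and 1.59 CPM in light plus ATR, against 0.642, 1.09, 0.758 and 0.561 CPM in light minus ATR. The highest light minus ATR library of fbxa-39 lay just above the lowest light plus ATR library, and the change was 1.77-fold (log2 0.83 ± 0.25 SE, edgeR adjusted p = 0.0273). For fbxa-38 the levels were 2.83, 2.37, 3.35 and 3.19 CPM in light plus ATR, against 2.16, 1.64, 2.63 and 1.79 CPM in light minus ATR. These groups overlapped too, and the change was 1.42-fold (log2 0.51 ± 0.17 SE, edgeR adjusted p = 0.042). Exons of both genes share positions with another annotated RNA.

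**Figure D1:**
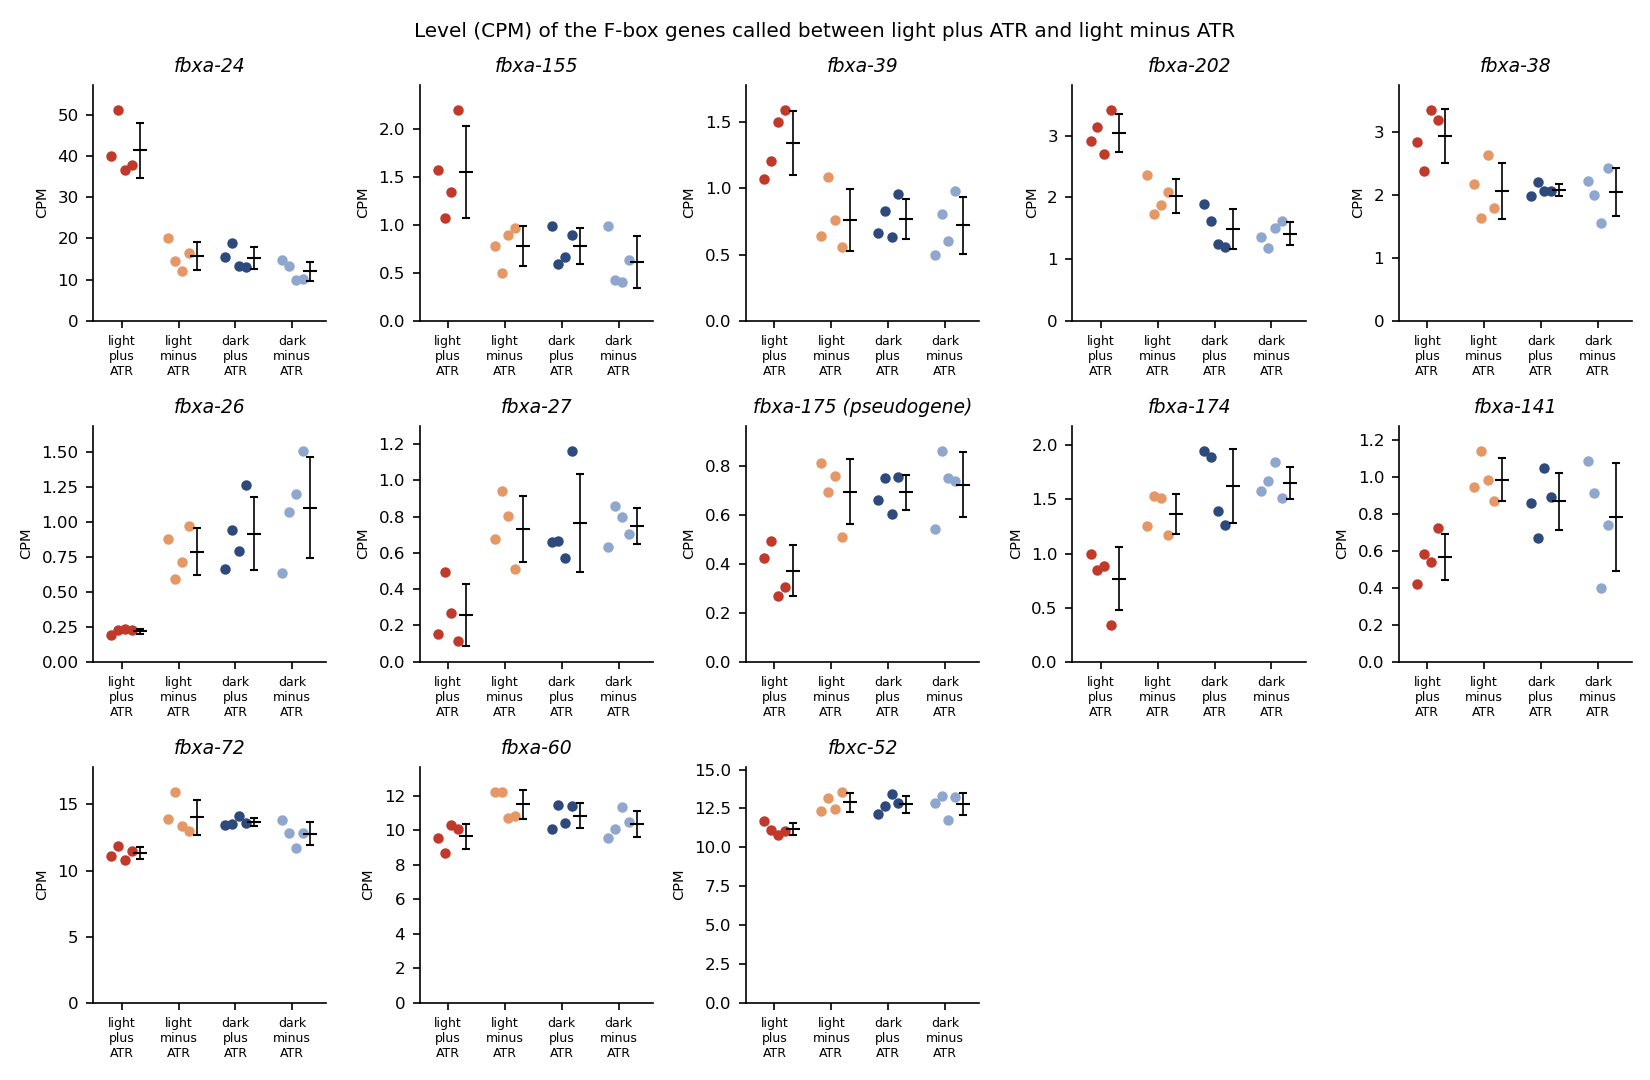
Level in CPM of each of the 13 called F-box genes, with 1 panel per gene and the 4 conditions on the x axis. Each dot is a library, and black marks give the mean and SD of 4 libraries. For fbxa-24 the light plus ATR libraries lie between 36.7 and 51.3 CPM, above all 12 other libraries, while for fbxa-26 they lie between 0.191 and 0.231 CPM, below all of them.

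The plot of the called genes by condition shows that the lowest levels of the set belonged to genes that fell. The fold was largest for fbxa-26 (WBGene00022324, chromosome III, 1340597 to 1342522, minus strand). It had 0.191, 0.224, 0.231 and 0.228 CPM in light plus ATR, against 0.879, 0.595, 0.714 and 0.969 CPM in light minus ATR, 0.661, 0.944, 0.792 and 1.27 CPM in dark plus ATR and 0.632, 1.08, 1.20 and 1.51 CPM in dark minus ATR. Each light plus ATR library was below all 12 others, on 5 or 6 counts per library, against 12 to 26 counts in light minus ATR. The level was 3.57-fold lower (log2 -1.83 ± 0.33 SE, edgeR adjusted p = 0.000428).

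Next to fbxa-26, on the opposite strand and 446 bp away, lies fbxa-27 (WBGene00022333, chromosome III, 1342969 to 1344744). Its levels were 0.153, 0.492, 0.270 and 0.114 CPM in light plus ATR, against 0.676, 0.941, 0.803 and 0.510 CPM in light minus ATR, 0.661, 0.669, 0.571 and 1.16 CPM in dark plus ATR and 0.632, 0.860, 0.799 and 0.702 CPM in dark minus ATR. The light plus ATR libraries were all below the other 12, the highest of them at 0.492 CPM just under the lowest of the 12 at 0.510 CPM. The level was 2.88-fold lower (log2 -1.53 ± 0.37 SE, edgeR adjusted p = 0.0060), on 3 to 11 counts per library in light plus ATR and 10 to 20 in light minus ATR. Both genes of this divergent pair were thus lower. On the other side of fbxa-26, 256 bp away, fbxa-5 was not called in this comparison, and its groups overlapped. Against dark plus ATR, fbxa-5 was called too, at a 2.06-fold lower level. Exons of fbxa-27 share positions with a gene on the other strand.

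Another called pair lies in a cluster on chromosome V. For fbxa-174 (WBGene00008015, 17555854 to 17558477, minus strand), the levels were 0.995, 0.851, 0.886 and 0.342 CPM in light plus ATR, against 1.25, 1.54, 1.52 and 1.17 CPM in light minus ATR. For the annotated pseudogene fbxa-175 (WBGene00045293, 17547383 to 17549288, plus strand), which lies 6.56 kb away with fbxa-176 between them, they were 0.421, 0.492, 0.270 and 0.304 CPM in light plus ATR, against 0.811, 0.694, 0.758 and 0.510 CPM in light minus ATR. For both genes every light plus ATR library was below all 12 others. The gene between them, fbxa-176, was not called (log2 0.07, edgeR adjusted p = 0.934). The fitted changes were log2 -0.83 ± 0.25 SE for fbxa-174 (edgeR adjusted p = 0.0253) and log2 -0.92 ± 0.27 SE for fbxa-175 (edgeR adjusted p = 0.0207).

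The fall was small in the more highly expressed genes. For fbxa-72 (WBGene00017962, chromosome V, 674886 to 676753, minus strand), levels were 11.1, 11.9, 10.8 and 11.5 CPM in light plus ATR, against 13.9, 16.0, 13.3 and 12.96 CPM in light minus ATR. The groups did not overlap, and the level was 1.24-fold lower (log2 -0.31 ± 0.07 SE, edgeR adjusted p = 0.00528). For fbxa-60 (chromosome III, 944733 to 946300, minus strand), they were 9.53, 8.68, 10.3 and 10.1 CPM in light plus ATR, against 12.2, 12.2, 10.7 and 10.9 CPM in light minus ATR. These groups did not overlap either (log2 -0.25 ± 0.08 SE, edgeR adjusted p = 0.0366), but the count of fbxa-60 in 3 libraries was divided with fbxa-55, and the sum of both genes was not called (log2 -0.14, edgeR adjusted p = 0.239).

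The only fbxc gene of the set, fbxc-52 (chromosome II, 3717261 to 3719764, plus strand), had 11.7, 11.1, 10.8 and 11.05 CPM in light plus ATR, against 12.3, 13.2, 12.4 and 13.6 CPM in light minus ATR. Its light plus ATR libraries were below all 12 others by a narrow margin (log2 -0.20 ± 0.07 SE, edgeR adjusted p = 0.0402). The level of fbxa-141 (chromosome X, 14511248 to 14512917, minus strand) was 0.421, 0.582, 0.539 and 0.721 CPM in light plus ATR, against 0.947, 1.14, 0.981 and 0.867 CPM in light minus ATR. These groups did not overlap, though the dark minus ATR libraries of fbxa-141 reached down to 0.399 CPM (log2 -0.79 ± 0.27 SE, edgeR adjusted p = 0.0465). Both adjusted p were close to the threshold, and the call was lost in 16 of 22 alternatives for fbxa-141 and in 14 of 22 for fbxc-52.

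Across all 12 control libraries, 3 of the 247 genes were above every one in all light plus ATR libraries, namely fbxa-24, fbxa-155 and fbxa-202, where 7.35% of all genes tested were. Another 6 were below every one, namely fbxa-26, fbxa-27, fbxa-174, fbxa-175, fbxc-32 and fbxc-52, where 6.29% of all genes tested were.

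The F-box genes with a known place in the CUL-6 ligase were near the limit of detection. For fbxa-75 there was 1 count in light plus ATR replicates 1 and 4 and in dark plus ATR replicate 3, and 0 in the other 13 libraries. The mean level of fbxa-158 was 0.25 CPM, from 1 to 11 counts per library. Neither gene passed the filter, so neither was tested.

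In light plus ATR against dark plus ATR, which sets illuminated against dark worms that all had the cofactor, 30 of 247 F-box genes (12.1%) passed the threshold, 16 higher and 14 lower. The background was 27.7% of all genes. With library totals as the scaling, 29 were higher and 8 lower. By family, 21 of 135 tested fbxa genes (9 higher, 12 lower) were called. So were 4 of 74 tested fbxb genes (all higher) and 5 of 38 tested fbxc genes (3 higher, 2 lower). Among genes with a mean under 1 CPM, 12.9% of F-box genes and 15% of all genes were called. Between 1 and 3 CPM the shares were 10% and 27.6% in that order. From 3 to 10 CPM they were 8.51% and 33.7%, and at 10 CPM or more 25% and 29.5%. The light plus ATR libraries are the same ones as in the comparison above.

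For fbxa-24, log2 was 1.45 in this comparison (edgeR adjusted p = 4.9e-05), a 2.73-fold difference. For fbxa-26 the level was 4.11-fold lower (log2 -2.04), and for fbxa-202 it was 2.05-fold higher (log2 1.03). Changes of log2 -1.59 for fbxa-27, -1.08 for fbxa-174, -0.89 for fbxa-175, 0.98 for fbxa-155, 0.81 for fbxa-39, 0.50 for fbxa-38, -0.27 for fbxa-72 and -0.19 for fbxc-52 also passed the threshold. Of the 13 genes, fbxa-60 (log2 -0.17, edgeR adjusted p = 0.128) and fbxa-141 (log2 -0.62, edgeR adjusted p = 0.0853) did not.

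**Figure D2:**
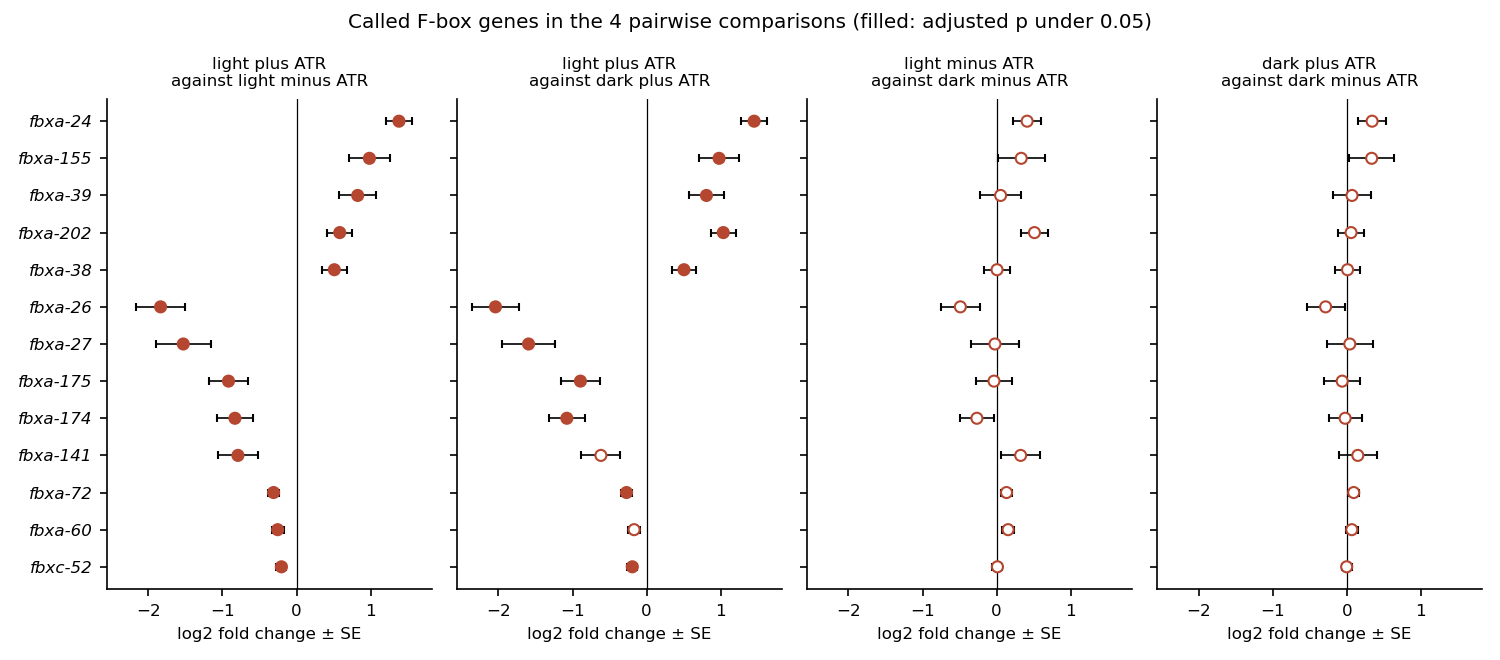
Log2 fold change, with its standard error as a bar, of the F-box genes called between light plus ATR and light minus ATR, in each of the 4 pairwise comparisons. Filled points have an adjusted p under 0.05. The filled points all lie in the panels that contain the light plus ATR libraries, with fbxa-24 at 1.38 and 1.45 and fbxa-26 at -1.83 and -2.04.

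Several genes of this comparison are named here after their values were seen. The highest fitted increase belonged to fbxa-223, with 0.459, 0.537, 0.578 and 0.683 CPM in light plus ATR, against 0.264, 0.197, 0.0951 and 0.103 CPM in dark plus ATR. The groups did not overlap (log2 1.76 ± 0.36 SE, edgeR adjusted p = 0.00118), but the light minus ATR libraries of fbxa-223, at 0.248 to 0.541 CPM, overlapped the light plus ATR libraries. The lowest fitted value belonged to fbxa-151, whose estimated counts were 0, 3, 0 and 0 in light plus ATR, against 24, 9, 9 and 9 in dark plus ATR. Since light plus ATR held almost no counts of fbxa-151 and its counts were divided with fbxa-78 in 7 libraries, the sum of both genes was tested, and it was lower too (log2 -1.34, edgeR adjusted p = 0.00472). The fbxb genes called were fbxb-48 (log2 1.31), fbxb-68 (1.08), fbxb-106 (1.08) and fbxb-66 (1.01), all near or under 1 CPM in most libraries. For each of these fbxb genes the light plus ATR libraries overlapped those of light minus ATR. The fbxc genes called were fbxc-26 (log2 1.00), fbxc-18 (0.69) and fbxc-51 (0.49), all higher, and fbxc-32 (-0.19) and fbxc-52 (-0.19), both lower. Those that were higher also overlapped light minus ATR, while those that were lower did not.

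Light alone was tested in light minus ATR against dark minus ATR. No F-box gene was called, where the background was 0% of all genes, and 18 F-box genes (7.29%) had an unadjusted p under 0.05, against 13.4% of all genes. ATR without light pulses was tested in dark plus ATR against dark minus ATR. No F-box gene was called there either, where the background was 0.0665% of all genes, and 23 (9.31%) had an unadjusted p under 0.05, against 7.84% of all genes. DESeq2 called 1 F-box gene in each of these comparisons, fbxc-5 both times, a gene whose count moved between libraries in the way described below for its cluster.

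The interaction of light and ATR tests whether the difference between plus and minus ATR was the same in light as in the dark. It was called for 4 of 247 F-box genes, where the background was 5.23% of all genes. For fbxa-24 the interaction was log2 1.04 ± 0.26 SE (edgeR adjusted p = 0.0313), with differences of 1.38 in light and 0.34 in the dark. For fbxa-26 it was -1.55 ± 0.42 SE (edgeR adjusted p = 0.0319), with differences of -1.83 in light and -0.29 in the dark, and for fbxa-72 it was -0.40 ± 0.10 SE (edgeR adjusted p = 0.0206), with differences of -0.31 in light and 0.09 in the dark. The last gene, fbxa-44, is named after its values were seen.

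The interaction of fbxa-44 had another form (chromosome V, 16889275 to 16890749, plus strand). Its levels were 0.383, 0.582, 0.539 and 0.418 CPM in light plus ATR, 0.575, 0.644, 0.758 and 0.663 CPM in light minus ATR, 0.595, 0.472, 0.729 and 0.890 CPM in dark plus ATR and 0.361, 0.376, 0.250 and 0.421 CPM in dark minus ATR. The dark minus ATR group was low, and all its libraries lay below those of the light minus ATR and dark plus ATR groups. The interaction was log2 -1.37 ± 0.38 SE (edgeR adjusted p = 0.0374), with differences of -0.46 in light and 0.91 in the dark, neither of which was called. These values rest on 5 to 26 counts per library.

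As a family, the fbxb genes stood low in dark plus ATR, although no single gene passed the test against dark minus ATR. In dark plus ATR against dark minus ATR, 61 of the 74 tested fbxb genes had a negative log2 fold change. Among all 15044 genes tested, 7294 did. The fbxb median was -0.35. The 74 genes were measured in the same libraries, so their signs are not independent of one another. Of the 74 genes 15 (20.3%) had an unadjusted p under 0.05, against 7.84% of all genes. The smallest p was that of fbxb-84 (log2 -0.76, edgeR adjusted p = 0.428). Its levels were 0.793, 0.787, 0.888 and 0.958 CPM in dark plus ATR, against 1.72, 1.83, 1.10 and 1.23 CPM in dark minus ATR. The medians in the same comparison were 0.04 over fbxa genes, -0.02 over fbxc genes and 0.00 over all genes. Over all 2312 tested genes with a mean under 1 CPM, the range in which most fbxb genes lie, the median was 0.08.

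**Figure D3:**
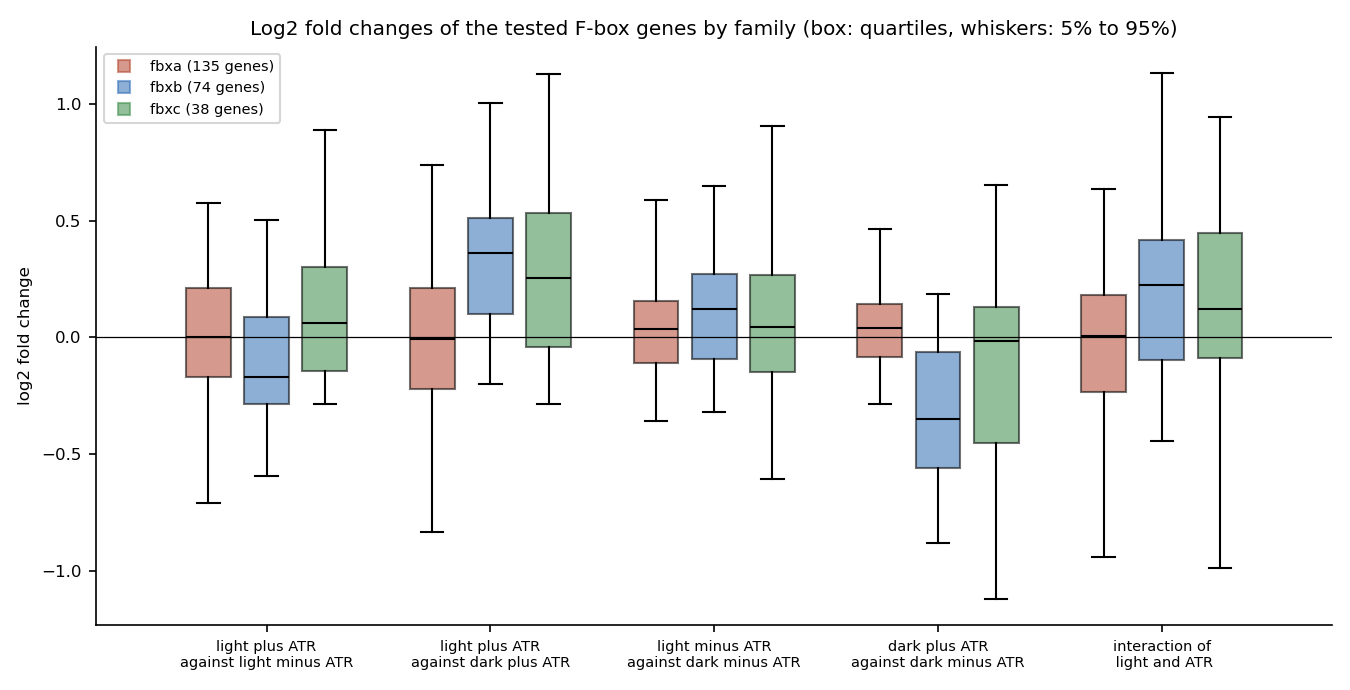
Log2 fold changes of the 135 fbxa, 74 fbxb and 38 fbxc genes tested, in the 5 comparisons. Boxes span the quartiles and whiskers run from 5% to 95% of the genes. The fbxb box lies lowest in dark plus ATR against dark minus ATR (median -0.35) and highest in light plus ATR against dark plus ATR (median 0.36).

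The summed level of the fbxb genes was 59.3, 62.4, 60.7 and 52.3 CPM in light plus ATR, 68.7, 66.8, 66.1 and 55.4 CPM in light minus ATR, 53.7, 48.4, 45.1 and 48.1 CPM in dark plus ATR and 57.1, 65.9, 61.6 and 56.2 CPM in dark minus ATR. All dark plus ATR libraries were below all dark minus ATR libraries. Without the highest genes of the family, fbxb-67 and fbxb-7, the sums were 44.7, 39.9, 36.6 and 38.6 CPM in dark plus ATR, against 47.4, 55.5, 52.0 and 47.8 CPM in dark minus ATR, which did not overlap either. The summed fbxa level averaged 778 ± 13.1 CPM in light plus ATR, 758 ± 24.5 in light minus ATR, 769 ± 14.4 in dark plus ATR and 769 ± 26.1 in dark minus ATR (SD, n = 4 each). For fbxc genes the means were 213 ± 4.88, 214 ± 9.07, 214 ± 5.68 and 221 ± 9.54 CPM, in the same order of groups.

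**Figure D4:**
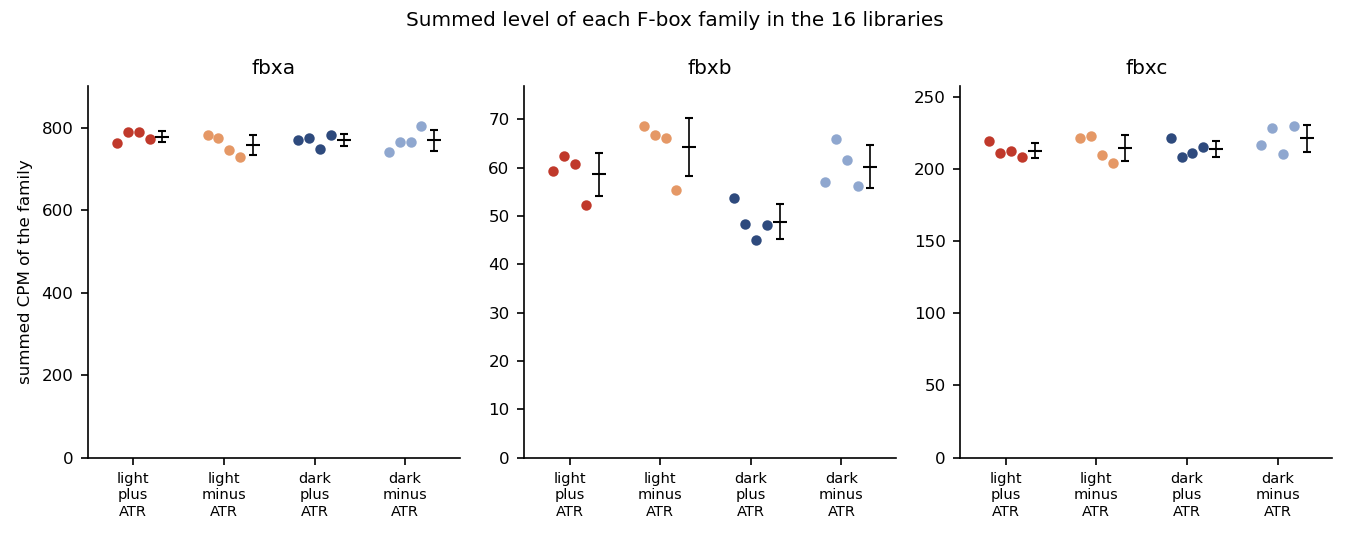
Summed CPM of the fbxa, fbxb and fbxc genes in each of the 16 libraries, by condition. Dots are libraries, and black marks give the mean and SD of 4 libraries. The fbxb sums of the dark plus ATR libraries (45.1 to 53.7 CPM) lie below those of the dark minus ATR libraries (56.2 to 65.9 CPM).

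In the other comparisons, the median log2 fold change of the 74 fbxb genes was -0.17 between light plus ATR and light minus ATR (54 negative), 0.36 in light plus ATR against dark plus ATR (62 positive) and 0.12 in light minus ATR against dark minus ATR. The genes under 1 CPM as a whole had medians of 0.22, 0.25 and 0.14 in these comparisons. These medians share libraries: the dark plus ATR libraries enter both the comparison with the lowest fbxb median and that with the highest. Under ERCC scaling the fbxb median in dark plus ATR against dark minus ATR was -0.19, beside a median of 0.15 over all genes.

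For some of the F-box genes, the counting divided reads among genes. Fractional estimated counts were found in 49 of the 390 genes, 34 of them tested. For 10 pairs of genes the fractions added up to whole counts in every library that held them, among them fbxa-55 with fbxa-60 and fbxa-171 with fbxa-174. The sum of fbxa-171 and fbxa-174 was called as fbxa-174 alone was (log2 -0.89, edgeR adjusted p = 0.0196).

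The clearest case is a tandem array on chromosome IV between 891239 and 911196. There fbxc-1, fbxc-2, fbxc-4, fbxc-5 and fbxc-3, each with 1128 bp of exons, start 4152 or 4153 bp apart, and they alternate with fbxc-9, fbxc-10, fbxc-11, fbxc-12 and fbxc-8, each with 1413 bp of exons. In each of the 16 libraries exactly 2 of the genes fbxc-1 to fbxc-5 held counts (81 to 245 where detected) and the other 3 were at 0. Counts were present for fbxc-1 in 12 libraries, for fbxc-2 in 7, for fbxc-4 in 6, for fbxc-5 in 4 and for fbxc-3 in 3. Which genes held them varied within each group. The sums over the 5 genes were whole to within 0.003 in all 16 libraries.

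**Figure D5:**
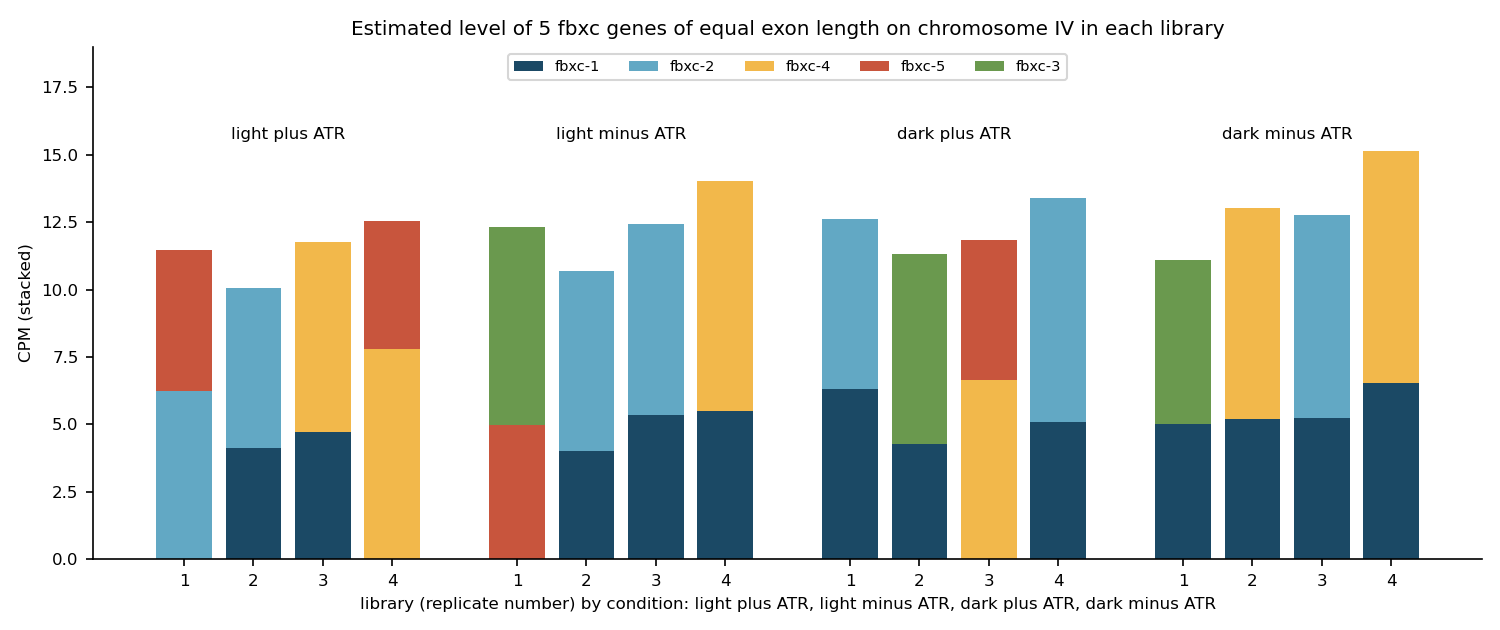
Stacked CPM of fbxc-1, fbxc-2, fbxc-4, fbxc-5 and fbxc-3 in each of the 16 libraries, 1 bar per library and 1 colour per gene. In every bar 2 genes make up the whole height, and which 2 they are changes between libraries of the same condition, while the height stays between 10.1 and 15.1 CPM.

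The summed level of fbxc-1 to fbxc-5 averaged 11.5 ± 1.03 CPM in light plus ATR, 12.4 ± 1.36 in light minus ATR, 12.3 ± 0.897 in dark plus ATR and 13.01 ± 1.66 in dark minus ATR (SD, n = 4 each). The sum was not called between light plus ATR and light minus ATR (log2 -0.11, edgeR adjusted p = 0.471), while the fitted value of a single gene reached log2 8.11, for fbxc-5 in light minus ATR against dark minus ATR, without a call by edgeR. Values of these 5 genes taken singly are given here only to describe the counting.

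For the alternating genes fbxc-8 to fbxc-12, of which 1 or 2 held counts in each library, the summed level was 1.19, 1.16, 1.19 and 1.10 CPM in light plus ATR, 1.01, 0.892, 0.937 and 0.714 CPM in light minus ATR, 0.727, 0.551, 0.634 and 0.719 CPM in dark plus ATR and 0.903, 1.29, 1.45 and 1.16 CPM in dark minus ATR. The light plus ATR libraries were above all light minus ATR and all dark plus ATR libraries, and the dark plus ATR libraries were below all dark minus ATR libraries. With shared genes summed, a fit chosen after the data were seen, the change in light plus ATR against dark plus ATR was log2 0.81 ± 0.20 SE (edgeR adjusted p = 0.00486) and the interaction was 1.22 ± 0.28 SE (edgeR adjusted p = 0.0092). Neither light plus ATR against light minus ATR (log2 0.37, edgeR adjusted p = 0.219) nor dark plus ATR against dark minus ATR (log2 -0.85, edgeR adjusted p = 0.279) was called for this sum.

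Other parts of the ligases were taken from lists of gene names. Of 21 SKP1-related adaptor genes (skr), 20 were tested. Between light plus ATR and light minus ATR, skr-3 (log2 -0.22), skr-17 (-0.14) and skr-18 (-0.22) were lower and none was higher, and the median of the list was -0.07. The share called was 15% of the adaptor genes, near the background of 16.3% of all genes. The level of skr-18 averaged 46.2 ± 1.65 CPM in light plus ATR and 53.7 ± 2.87 CPM in light minus ATR (SD, n = 4 each; edgeR adjusted p = 0.00292). The same 3 genes were lower against dark plus ATR (log2 -0.20, -0.13 and -0.25 in that order), where 5 others were higher: skr-12 (0.60), skr-8 (0.57), skr-9 (0.49), skr-10 (0.49) and skr-13 (0.41). This was 40% of the adaptor genes, where the background was 27.7%. The level of skr-8 averaged 5.79 ± 0.845 CPM in light plus ATR and 3.92 ± 0.289 CPM in dark plus ATR (SD, n = 4 each). In dark plus ATR against dark minus ATR, 18 of 20 adaptor genes had a negative log2 fold change, with a median of -0.11 and 0 called by edgeR. Of the 20 genes 7 (35%) had an unadjusted p under 0.05, against 7.84% of all genes.

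None of the 8 cullin and RING subunit genes was called in any comparison by edgeR. Between light plus ATR and light minus ATR their median was -0.07. There 1 of these genes had an unadjusted p under 0.05, against 30.9% of all genes. Of 10 other F-box protein genes, dre-1, a regulator of developmental timing, rose (log2 0.20), as did fbxl-1 (0.16), between light plus ATR and light minus ATR. Of 12 genes of the neddylation and COP9 signalosome machinery, which switches cullins on and off, ned-8 (log2 -0.15), the cullin modifier itself, and ubc-12 (-0.19), its conjugating enzyme, fell. These were 20% of the other F-box protein genes and 16.7% of the neddylation genes, near the background of 16.3%. Of the 5 tested genes of the CUL-6 ligase, skr-3 was lower between light plus ATR and light minus ATR. Against dark plus ATR, skr-3 and rcs-1 (log2 -0.25) were lower. These were 20% and 40% of the 5 genes, where the backgrounds were 16.3% and 27.7% of all genes.

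Markers of other tissues moved with light plus ATR as well. Between light plus ATR and light minus ATR, 5 of 6 body wall muscle markers were higher, with a summed level of 4484 to 4677 CPM in light plus ATR and 3394 to 4178 CPM in light minus ATR. Of 6 intestine markers 2 were higher and 3 lower, and of 7 neuron markers 2 were higher. Of 5 hypodermis markers 1 was lower, while 4 had a positive log2 fold change, with a list median of 0.54. Of 10 germline markers 0 was called by edgeR, with 4 at an unadjusted p under 0.05, against 30.9% of all genes. The shares called were 83.3% of muscle, 83.3% of intestine, 28.6% of neuron and 20% of hypodermis markers. The background was 16.3% of all genes. The 7 sperm markers summed to 227 to 356 CPM in light plus ATR, 182 to 252 CPM in light minus ATR, 146 to 210 CPM in dark plus ATR and 132 to 181 CPM in dark minus ATR. All 7 (100%) were higher in light plus ATR against dark plus ATR, and 6 of 10 germline markers (60%) were lower. The background in this comparison was 27.7% of all genes. The part of these shifts in the values of the F-box genes was not tested.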

How the data were processed

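Total RNA from whole worms was made into TruSeq Stranded mRNA libraries with poly(A) enrichment and ERCC spike-in RNA. The authors produced the deposited values, estimated counts per gene from salmon, with an nf-core RNA-seq pipeline and STAR alignment to WBcel235 with Ensembl annotation version 103. The deposited series matrix named for TPM holds the same estimated counts (750464 of 750464 values equal within 1e-06) and was used only for symbols. Counts were rounded to whole numbers. Genes were filtered with filterByExpr on the 4 groups (15044 kept), scaled by TMM over 19264325 to 32374032 counts per library, which sets the precision, and tested with the robust quasi-likelihood F test of edgeR 4.0.16 (R 4.3.3) on all 16 libraries, with Benjamini-Hochberg adjustment over all tested genes and a threshold of 0.05. The ERCC rows were kept out of library sizes. Errors are SD over 4 libraries or SE of the fit. This SE was derived as the absolute log2 fold change divided by the square root of the F statistic. The script was tested on simulated data. Alternatives were DESeq2 1.42.0, library or ERCC totals, no filter, a replicate block, only the compared groups, each library left out and, added after the data were seen, summed counts of genes that share reads.

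Members and lists were chosen with earlier results of these data known. Genes named with values are those called between light plus ATR and light minus ATR, the 3 with the smallest p in each other comparison if called, the 5 with the highest mean level, and fbxa-72, fbxa-75 and fbxa-158. Other genes given with values, such as fbxb-84, fbxa-176 and those of the partner lists, fall outside these rules. Only some of them are marked in the text as named after their values were seen.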

Additional observations from a re-analysis of the deposited data

Results flagged for a closer look

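For the named genes, the 4 libraries of each group were examined for a library far from the others (Dixon's test of the gap against the range, at the 95% critical value). In 78 groups 6 libraries stood apart, where chance gives about 1 in 20. They were dark plus ATR replicate 4 for fbxa-27 (1.16 CPM) and for fbxa-215 (267.7 CPM), dark plus ATR replicate 3 for fbxa-210 (40.5 CPM) and for fbxa-75 (0.0317 CPM, from 1 count), dark minus ATR replicate 4 for fbxa-210 (47.6 CPM) and light minus ATR replicate 4 for fbxa-158 (0.408 CPM).

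The difference between plus and minus ATR was not the same in light as in the dark for 4 genes, by the interaction term of edgeR with Benjamini-Hochberg adjustment. The interaction was log2 1.04 for fbxa-24 (adjusted p = 0.0313), -1.55 for fbxa-26 (adjusted p = 0.0319), -1.37 for fbxa-44 (adjusted p = 0.0374) and -0.40 for fbxa-72 (adjusted p = 0.0206).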

How the results depend on the processing

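The number of F-box genes called between light plus ATR and light minus ATR was 13, and it was 7 with ERCC totals, 9 with DESeq2, 9 without a filter, 12 with library totals and 10 with only the compared groups. Leaving out a library gave 7 to 14: 7 without light minus ATR replicate 2, and 8 without light minus ATR replicate 3, light plus ATR replicate 3 or light plus ATR replicate 4. Against dark plus ATR the number was 30, with 20 under ERCC totals and 19 to 34 on leaving out a library, the 19 without dark plus ATR replicate 3 or 4. DESeq2 called 1 gene in each comparison of control groups, where edgeR called 0. For the interaction, 4 genes were called, 1 with ERCC totals and 1 to 5 on leaving out a library: 1 without light minus ATR replicate 2, light minus ATR replicate 4 or dark plus ATR replicate 4, and 2 without light plus ATR replicate 1 or 4, dark plus ATR replicate 3 or dark minus ATR replicate 2. With shared counts summed, a choice made after the data were seen, the numbers were 12, 34, 0, 0 and 5 in the order of the report.

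Between light plus ATR and light minus ATR, fbxa-24 and fbxa-26 were called in all 22 alternatives, fbxa-27 in the 21 that gave an adjusted p (DESeq2 gave none) and fbxa-72 in all 22 but the ERCC totals. Calls were lost in 4 of 21 for fbxa-175 (with no adjusted p from DESeq2) and, of 22, in 2 for fbxa-155, 3 for fbxa-202, 5 for fbxa-174, 5 for fbxa-39, 8 for fbxa-60, 11 for fbxa-38, 14 for fbxc-52 and 16 for fbxa-141. For the interaction, calls were lost in 4 of 21 alternatives for fbxa-72, 9 of 21 for fbxa-24, 8 of 20 for fbxa-26 and 12 of 20 for fbxa-44. Signs changed for highly expressed genes without a call: to log2 0.0474 (library totals) and 0.0185 (ERCC totals) for fbxa-215, to 0.0517 and 0.0242 for fbxa-210, to 0.0058 for fbxc-50 and 0.0277 for fbxc-44 with library totals, and for fbxa-101, between -0.00156 and 0.0809 on leaving out a library, without light minus ATR replicate 4 only. The fbxb median in dark plus ATR against dark minus ATR stayed between -0.40 and -0.19 over 23 settings. ERCC totals moved the median of all genes by 0.15 there and by 0.11 in light minus ATR against dark minus ATR.

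Same-numbered libraries did not deviate together (6 of 24 pairs had a correlation over 0.1, and 5 of 16 libraries correlated best with their own number). With the replicate block, 12, 31, 0, 0 and 4 genes were called. Few counts per library limit the precision for genes such as fbxa-26 and fbxa-27, and 143 of the 390 genes were too low to be tested.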

Other observations

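The MATH and BATH proteins are another greatly expanded group in Caenorhabditis. They include substrate adaptors of ubiquitin ligases built on the cullin CUL-3, and so have a role comparable to that of F-box proteins in SCF ligases. Of 92 such genes found, 58 were tested, and 6 (10.3%, where the background was 16.3% of all genes) passed the edgeR test between light plus ATR and light minus ATR, all of them higher. The level of math-4 averaged 17.1 ± 1.02 CPM in light plus ATR and 12.7 ± 0.895 CPM in light minus ATR (mean ± SD of 4 libraries), with log2 0.43 between them. For math-38 the means were 4.71 ± 1.72 CPM in light plus ATR and 1.93 ± 0.655 CPM in light minus ATR (mean ± SD of 4 libraries), with log2 1.26 between them. The others were math-34 (log2 0.85), math-14 (0.80), math-3 (0.30) and bath-38 (0.28). The median over the 58 genes was 0.05. Against dark plus ATR, 6 were higher and 3 lower (15.5% called, where the background was 27.7% of all genes). Those that were lower were bath-40 (log2 -0.12), bath-41 (-0.13) and bath-42 (-0.14).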
